A study of Mus musculus with 9 samples.

Results

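The voltage-gated potassium channel family was examined in 3 pools of mouse motor neurons on 9 microarrays. Members were the genes whose symbol begins with Kcna, Kcnab, Kcnb, Kcnc, Kcnd, Kcne, Kcnf, Kcng, Kcnh, Kcnip, Kcnq, Kcns or Kcnv followed by a digit and whose probe sets name that gene alone in the platform annotation. The rule found 44 of the 18193 genes measured, 1 of which, Kcnq1ot1, is an antisense non-coding RNA and no channel, so that 43 protein genes are described. A gene with several probe sets was read from the one that was brightest on average across the 9 arrays.

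All animals were untreated wild-type C57BL/6J males at postnatal day 7. Neurons of the fifth lumbar level (L5), of the midbrain oculomotor nucleus (OMN) and of the dorsolateral nucleus at level L6 of the cord (DL) were cut by laser from sections stained with cresyl violet, about 200 for each pool and animal, and each pool had 3 arrays. The pools differ in their vulnerability in amyotrophic lateral sclerosis, in which limb motor neurons die while eye and pelvic sphincter motor neurons are relatively spared. The stain shows neurons by their form and is no molecular marker, and a cut can take in neighbouring cells. No label states that equal replicate numbers come from the same animal. In such samples fewer cells of a type and less RNA per cell cannot be told apart.

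Voltage-gated potassium channels open when the membrane depolarises and let potassium out, which ends the action potential and sets how often a neuron can fire. Most are tetramers of pore-forming subunits. The Kcna (Kv1), Kcnc (Kv3), Kcnd (Kv4), Kcnh (Kv10 to Kv12) and Kcnq (Kv7) subunits form pores of their own, while the electrically silent Kcnf, Kcng, Kcns and Kcnv subunits make a working channel only together with Kcnb (Kv2) subunits and modify it. Accessory proteins, the cytoplasmic beta subunits (Kcnab), the calcium-binding KChIPs (Kcnip) and the single-span Kcne subunits, change gating and trafficking. In motor neurons Kv2 channels gather at the large cholinergic synapses on the cell body, Kv1 channels lie along the axon, and Kv3 channels allow fast repolarisation.

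Values are the deposited intensities, which have the same trimmed mean of 250 on each array. Controls for bacterial transcripts that had not been spiked in reached at most 18.3, and that value was taken as the noise level. Between 67.0% and 71.5% of all genes exceeded it on an array, and replicate arrays were spread most widely in DL: for the 15 members with a mean over 200, the median SD on the log2 scale was 0.280 there, 0.194 in OMN and 0.185 in L5. DL arrays 1 and 3 also stood apart in RNA quality, with a Gapdh 3'/5' ratio of 3.27 and 3.75, beside 2.33 to 2.67 elsewhere. Of 8 motor neuron markers, 7 exceeded the noise level on all arrays of each pool, though not the same 7. Chat, which makes acetylcholine, was above noise on no L5 array and on 1 DL array, and Isl2 on 1 OMN array, whereas the cholinergic transporters Slc5a7 and Slc18a3 had means between 1662 and 4107 in every pool. Bright markers differed between pools too. Isl1 had means of 598 in L5, 2129 in OMN and 2717 in DL, and Prph of 10257, 4844 and 8626.

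Log2 differences are on the scale log2(intensity + 16), with the standard error (SE) of a limma fit over all genes and arrays. A member is called higher or lower where the Benjamini-Hochberg adjusted p over all 18193 genes of the comparison was under 0.05.

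Between L5 and DL, the family differed in 6 of 43 members. Kcng4, Kcna1, Kcna2 and Kcnc1 were higher in L5 (1.28% of all genes were), and Kcna6 and Kcnv1 were lower (1.28% of all genes). Together these are 14% of the members, beside 2.55% of all genes. Between DL and OMN 5 members were called (11.6%, beside 3.02% of all genes), of which Kcnv1, Kcna6 and Kcng1 were higher in DL (1.37% of all genes were) and Kcng4 and Kcnd3 were lower (1.65%). L5 and OMN differed in 2 members (4.65%, beside 2.17% of all genes), with Kcnab2 higher (0.945% of all genes) and Kcnd3 lower (1.22%) in L5. An unadjusted p under 0.05 was reached by 22 members between L5 and DL (18.9% of all genes), 18 between L5 and OMN (15.9%) and 12 between DL and OMN (16%). In all, 9 of the 43 members were called in at least 1 comparison (5.28% of all genes were), 5 of them in 1 comparison and 4 in 2. The comparisons share pools, so their counts are not independent of one another. Of the 9, 5 form pores, 3 are silent modifiers and 1 is a beta subunit. Kcna6 is counted here by its brightest probe set, and a further one was called the opposite way in both comparisons.

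**Figure D1:**
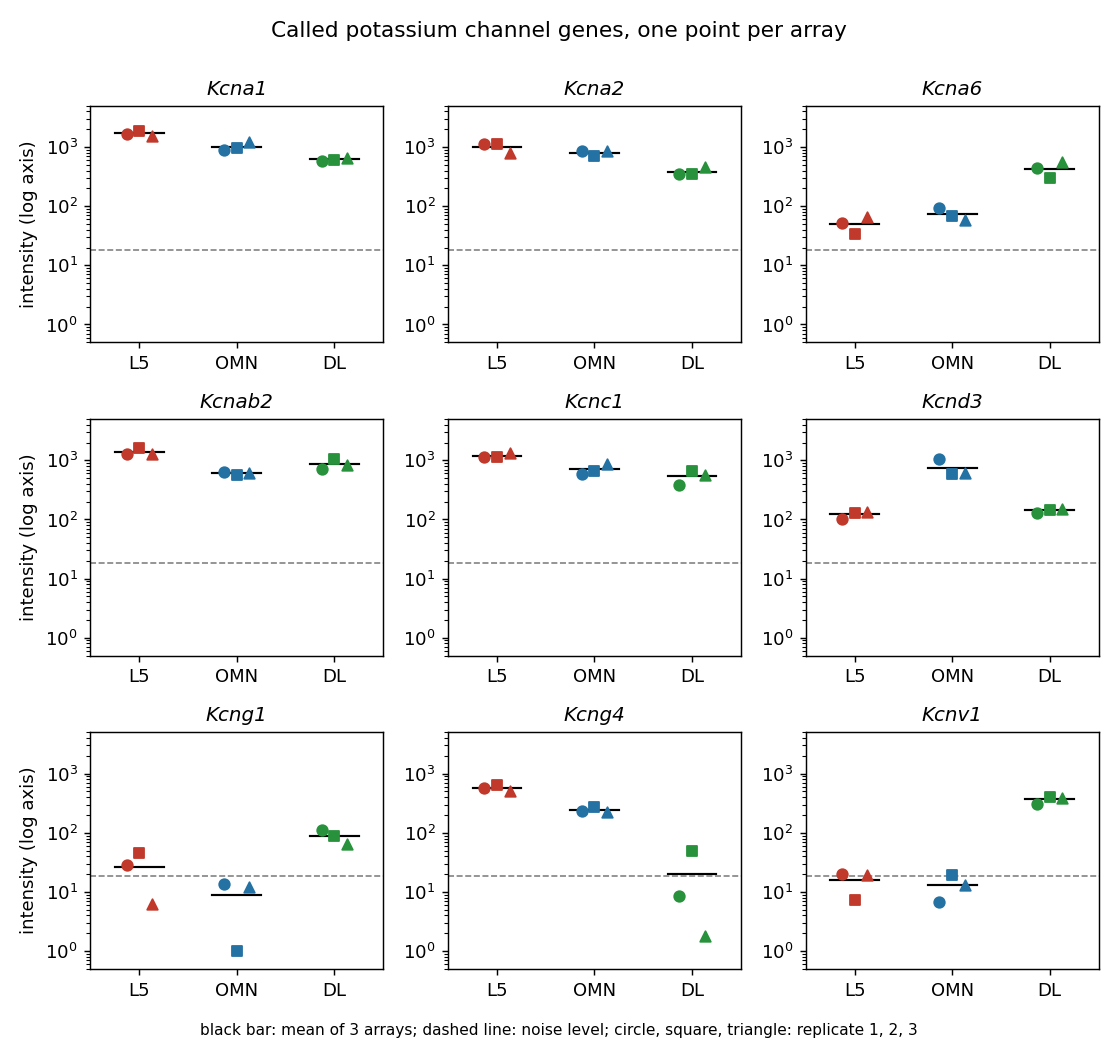
Intensity (log axis) of the 9 called members on each array, in L5, OMN and DL; the bar is the mean of 3 arrays and the dashed line the noise level of 18.3. Kcnv1 and Kcna6 lie highest in DL, Kcnd3 highest in OMN, and Kcng4 highest in L5 and at 1.80 to 50.1 in DL. Every gene is drawn from its brightest probe set only, and a further one of Kcna6 was lowest in DL.

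The silent modifiers held the largest differences of the family. Kcnv1 (Kv8.1), a subunit that lowers the current of Kv2 channels, had intensities of 306, 400.3 and 394 on the DL arrays. In L5 it stood at 20.4, 7.20 and 19.7, and in OMN at 6.80, 19.2 and 13.2. Every DL array was thus far above every other array, and by this probe set only 2 L5 arrays and 1 OMN array passed the noise level. With values under the noise raised to it, the probe set read at least 18.7-fold higher in DL than in L5 (log2 difference L5 minus DL -3.61 ± 0.27 SE, limma adjusted p = 0.00386) and at least 19.6-fold higher in DL than in OMN (3.73 ± 0.27, adjusted p = 0.00113). L5 and OMN differed by 0.12 (95% interval -0.51 to 0.75). Both further probe sets of Kcnv1 were called the same way in both comparisons when all probe sets were fitted, with smaller differences. One of them, 1453273_at, was above noise on every array, with means of 24.5 ± 1.65 (SD, n = 3) in L5, 24.7 ± 3.36 in OMN and 262 ± 25.8 in DL (L5 minus DL -2.78 and DL minus OMN 2.77, limma adjusted p = 0.00392 and 0.000861).

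Kcng4 (Kv6.4), another silent partner of Kv2, had the opposite order. Its intensity was 567, 645.5 and 505 in L5, 229, 271.5 and 225 in OMN, and 8.40, 50.1 and 1.80 in DL. The 3 pools did not overlap, and only DL array 2 exceeded the noise level in DL. L5 was at least 22.2-fold above DL (log2 difference 4.26 ± 0.34, limma adjusted p = 0.00435), and OMN at least 9.42-fold above DL (DL minus OMN -3.07 ± 0.34, adjusted p = 0.00501). The difference between L5 and OMN, 1.19 (95% interval 0.39 to 1.98), did not pass (limma adjusted p = 0.150). Of 20 alternative settings planned beforehand, 3 called it. Kcng4 has 1 probe set.

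Kcng1 (Kv6.1) was at 111, 86.6 and 65.4 in DL, 28.0, 45.0 and 6.30 in L5, and 13.4, 1.00 and 12.2 in OMN. All OMN arrays lay under the noise level, and DL was at least 4.68-fold above OMN (log2 difference 2.08 ± 0.37, limma adjusted p = 0.0331). DL also lay above L5 on every array, without a call (adjusted p = 0.108). Kcns2, a silent subunit of the Kv9 group, had means of 685 ± 59.7 (SD, n = 3) in L5, 702 ± 60.8 in OMN and 415 ± 58.3 in DL. DL did not overlap either pool, yet neither difference was called (adjusted p = 0.116 against L5 and 0.112 against OMN), and L5 and OMN differed by -0.03 (95% interval -0.50 to 0.43). Kcnf1 was under the noise level on all L5 arrays and at 28.2 to 54.6 in OMN and 25.2 to 52.7 in DL, not called. Kcns3 ranged from 144 to 175 in L5, from 74.6 to 108 in OMN and from 51.3 to 129 in DL, again with no call. With probe sets averaged, Kcns2 and Kcns3 were called higher in L5 than in DL, and Kcns2 also lower in DL than in OMN. Kcng2 and Kcns1 passed the noise level on some arrays only, and Kcnv2 on none.

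One promoter is shown for each pool, that of the member with the largest called difference among those whose mean was highest in that pool and which have an entry in RefSeq's promoter table (GRCm38.p6). Kcng4 (chr8:119635681-119635930, minus strand) stands for L5, Kcna6 (chr6:126740675-126740924, minus strand) for DL and Kcnd3 (chr3:105451640-105451889, plus strand) for OMN. Kcna6 was placed by its chosen probe set, which was its brightest on average only through the DL arrays. A further one, brighter in L5 and OMN, was called lower in DL and is described with the Kcna genes. Each sequence is the 250 bases before the annotated start, 5' to 3', with CpG pairs in capitals. They hold 4, 8 and 18 CpG pairs, beside a median of 6 in all 32851 promoters of this length, and a GC content of 60.4%, 58.8% and 62.8%, beside a median of 52.4%.
Kcng4: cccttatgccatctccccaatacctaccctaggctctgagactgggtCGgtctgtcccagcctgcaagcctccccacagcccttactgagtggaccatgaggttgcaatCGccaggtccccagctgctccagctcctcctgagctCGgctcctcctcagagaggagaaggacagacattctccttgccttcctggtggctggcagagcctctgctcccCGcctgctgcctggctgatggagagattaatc
Kcna6: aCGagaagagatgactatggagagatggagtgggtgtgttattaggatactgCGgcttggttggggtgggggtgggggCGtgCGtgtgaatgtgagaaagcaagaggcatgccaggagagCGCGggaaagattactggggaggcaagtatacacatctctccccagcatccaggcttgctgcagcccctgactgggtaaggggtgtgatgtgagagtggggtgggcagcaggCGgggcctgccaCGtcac
Kcnd3: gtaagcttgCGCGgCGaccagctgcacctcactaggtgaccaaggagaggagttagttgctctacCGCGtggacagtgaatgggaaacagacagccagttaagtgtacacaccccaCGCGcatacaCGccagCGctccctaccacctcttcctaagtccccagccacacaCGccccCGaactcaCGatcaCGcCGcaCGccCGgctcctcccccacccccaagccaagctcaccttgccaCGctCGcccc
The homeodomain core TAATTA, read on both strands, was found in none of these 3 windows and in 4.84% of all promoters. The GC box GGGCGG was also in none of the 3, and in 32.7% of all. The E-box CANNTG occurred 1 time each in Kcng4 and Kcnd3, and in 66.2% of all promoters. A missing match says only that the letters are not in the window. Entries were found for 31 of the 43 members and 6 of the 9 called.

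Among the Kcna genes, which encode the Shaker-type subunits of delayed rectifiers near the axon initial segment and nodes, Kcna1 and Kcna2 followed one order. Kcna1 (Kv1.1) was at 1676, 1903 and 1548 in L5, 881, 947 and 1209 in OMN, and 586, 600 and 665 in DL, with no overlap between any of the pools. Only L5 against DL was called (log2 difference 1.44 ± 0.20, limma adjusted p = 0.0177); L5 exceeded OMN by 0.75 ± 0.20 (adjusted p = 0.132) and OMN exceeded DL by 0.69 (DL minus OMN -0.69 ± 0.20, adjusted p = 0.142). Kcna2 (Kv1.2), which assembles with Kv1.1, was at 1111, 1138 and 808 in L5, 844, 706 and 868 in OMN, and 352, 350.2 and 451 in DL. L5 and OMN overlapped, and DL lay below both. The call was again L5 against DL (1.36 ± 0.23, adjusted p = 0.0321), and DL minus OMN was -1.04 ± 0.23 (adjusted p = 0.0674).

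Kcna6 (Kv1.6) gave contradictory readings. Its chosen probe set, 1456954_at, was at 440.3, 296 and 551 in DL, 52.8, 34.1 and 65.8 in L5, and 94.2, 67.2 and 58.7 in OMN. By that probe set Kcna6 was higher in DL than in L5 (L5 minus DL -2.72 ± 0.25, limma adjusted p = 0.00493) and than in OMN (DL minus OMN 2.29 ± 0.25, adjusted p = 0.00485). A further probe set, 1441049_at, ran the other way: it was at 20.6, 5.70 and 24.4 in DL, 233.5, 99.1 and 170.4 in L5, and 161, 119 and 78.8 in OMN. With all probe sets fitted, it was called lower in DL in both comparisons (L5 minus DL 2.46, limma adjusted p = 0.0183; DL minus OMN -2.05, adjusted p = 0.0216). The remaining one, 1421568_at, had means of 43.3 ± 9.62 (SD, n = 3) in L5, 66.3 ± 14.6 in OMN and 118 ± 73.1 in DL, and was not called. The choice of 1456954_at rested on the DL values, where its mean was 429 and that of 1441049_at 16.9. In L5 and OMN 1441049_at was the brighter (168 against 50.9, and 119 against 73.4). The direction of Kcna6 as a gene therefore depends on the probe set, and with the mean of all its probe sets neither difference was called (adjusted p = 0.400 and 0.647). The annotation used gives no place of a probe set within the gene. In the RefSeq gene table Kcna6 and Kcna1 are direct neighbours among coding genes on chromosome 6, followed on the other side of Kcna1 by Kcna5, and Kcna2 and Kcna3 are neighbours on chromosome 3.

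**Figure D2:**
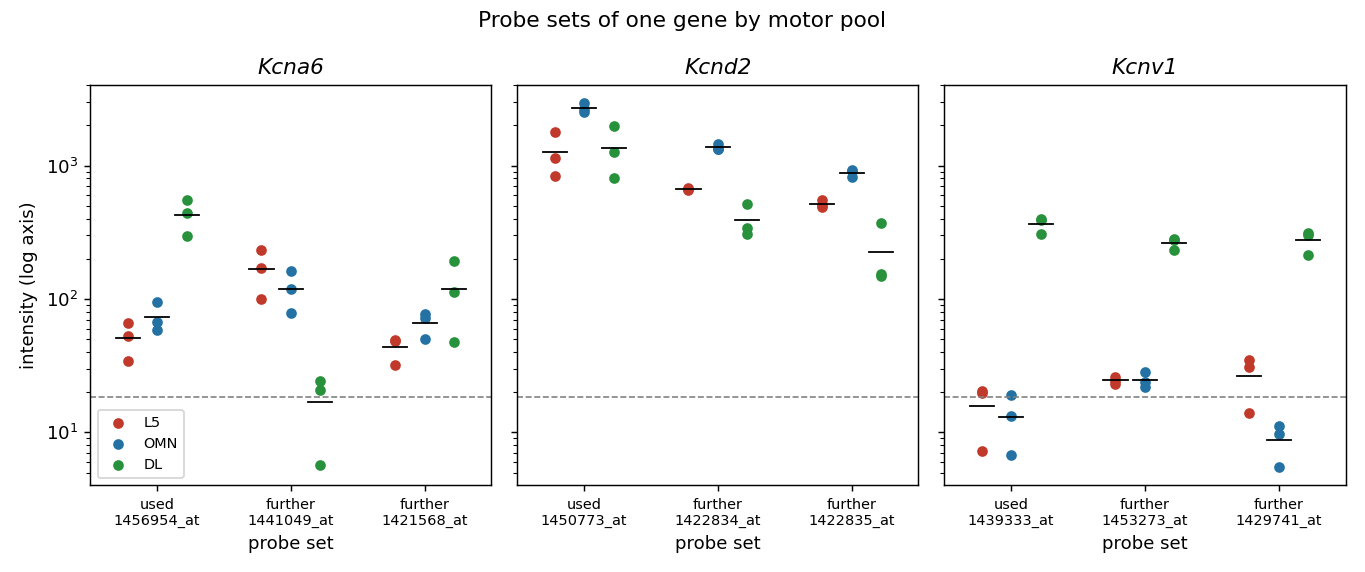
Intensity (log axis) of the probe sets of Kcna6, Kcnd2 and Kcnv1 that exceeded the noise level (dashed line, 18.3) on some array, 3 arrays for each pool with their mean as a bar. DL is highest in 1456954_at and lowest in 1441049_at of Kcna6, lowest in both further sets of Kcnd2, and highest in all 3 of Kcnv1.

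The other Kcna members made no call. Kcna3 lay at 75.3 to 91.5 in OMN, above all L5 arrays (35.2 to 55.7) and all DL arrays (45.5 to 55.2). Kcna4 was at 54.9 to 149 in OMN, 29.8 to 47.1 in L5 and 13.4 to 77.4 in DL. Kcna5 and Kcna7 stayed near the noise level, with no array above 25.5.

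Of the Kcnc genes, whose Kv3 channels repolarise fast-firing neurons, Kcnc1 (Kv3.1) was higher in L5 than in DL. It stood at 1145, 1140 and 1309 in L5, 592, 661 and 880 in OMN, and 385, 668 and 558.5 in DL. L5 lay above both other pools on every array, and OMN and DL overlapped. The difference from DL was 1.17 ± 0.22 (limma adjusted p = 0.0445) and that from OMN 0.76 ± 0.22 (adjusted p = 0.156). With all probe sets fitted, the same probe set was not called against DL (limma adjusted p = 0.0586). Kcnc2 (Kv3.2) was instead lowest in L5, at 155 to 317 in L5, 402 to 590.4 in DL and 542 to 700.1 in OMN, with no call (adjusted p = 0.109 for L5 against OMN). Kcnc4 (Kv3.4), a fast-inactivating subunit, was at 3730 ± 108 (SD, n = 3) in L5, 3114 ± 193 in OMN and 2687 ± 509 in DL. L5 minus OMN was 0.26 (95% interval -0.17 to 0.69) and L5 minus DL 0.49 (0.06 to 0.92), neither of them called.

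The Kcnd genes encode the Kv4 subunits of the A-type current, which inactivates quickly and delays firing. Kcnd3 (Kv4.3) was at 1038, 581 and 605 in OMN, against 101, 129 and 136 in L5 and 131, 146 and 153 in DL. OMN was 6.08-fold above L5 (L5 minus OMN -2.42 ± 0.27, limma adjusted p = 0.00777) and 5.18-fold above DL (DL minus OMN -2.20 ± 0.27, adjusted p = 0.00827), and no OMN array overlapped the others. L5 and DL differed by -0.21 (95% interval -0.85 to 0.42). All 3 further probe sets had the same sign in both comparisons, and 1 of them was called for L5 against OMN. Kcnd2 (Kv4.2) was at 2936, 2523 and 2657 in OMN, 1796, 1140.5 and 838 in L5, and 1264, 809 and 1979 in DL. OMN lay above both pools on all arrays, but neither difference was called (adjusted p = 0.174 against L5 and 0.186 against DL). Probe sets 1422834_at and 1422835_at of Kcnd2 varied less between arrays of L5, and both were called lower in DL than in OMN when all probe sets were fitted, by -1.82 (limma adjusted p = 0.0110) and -2.03 (adjusted p = 0.0180). The first of them had means of 665.5 ± 8.74 in L5, 1370 ± 69.6 in OMN and 387 ± 112 in DL. Kcnd1 was at 69.1 to 161 over all arrays, with no call.

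Kcnh genes encode the ether-a-go-go group, slow channels that shape excitability near rest, and none of the 6 was called by its chosen probe set. Kcnh2 (the Erg channel) ranged from 96.8 to 186 in L5, from 122.5 to 184 in OMN and from 98.8 to 225.5 in DL, all 3 overlapping, with intervals of -0.97 to 0.55 for L5 minus OMN and -0.94 to 0.58 for L5 minus DL. Kcnh8 was under the noise level on every L5 array and at 27.4, 27.6 and 37.4 in OMN (L5 minus OMN -1.05 ± 0.25, limma adjusted p = 0.0941). Kcnh1 reached 103 to 321 in L5 and 16.6 to 52.1 in OMN, and the difference of 2.10 ± 0.60 was not called (adjusted p = 0.150). Its further probe set, 1435994_at, read 222, 162 and 129.6 in L5 against 28.3, 25.4 and 20 in OMN and was called higher in L5 when all probe sets were fitted (2.18, limma adjusted p = 0.0253), and Kcnh1 was also called with its probe sets averaged. Kcnh3, Kcnh5 and Kcnh7 stayed at or under 87.0.

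The Kcnq genes encode the Kv7 subunits of the M-current, which holds down repetitive firing and is closed by muscarinic receptors. None of 3 was called. Kcnq3 was at 371, 597 and 428.5 in L5, 428.3, 584.5 and 653 in OMN, and 356, 407 and 487 in DL. The pools overlapped, and the intervals were -0.74 to 0.24 for L5 minus OMN and -0.35 to 0.63 for L5 minus DL. Kcnq5 was at 293, 277 and 182 in L5, 34.8, 38.0 and 164.5 in OMN, and 72.0, 42.8 and 149.9 in DL. All L5 arrays exceeded all others. The third array of OMN and of DL came close to the lowest of L5, and the differences of 1.73 ± 0.48 and 1.46 ± 0.48 were not called (adjusted p = 0.140 and 0.164). Without L5 array 3 both were, at an adjusted p of 0.0366 and 0.0491. Kcnq1 was at 1.50 to 36.9.

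**Figure D3:**
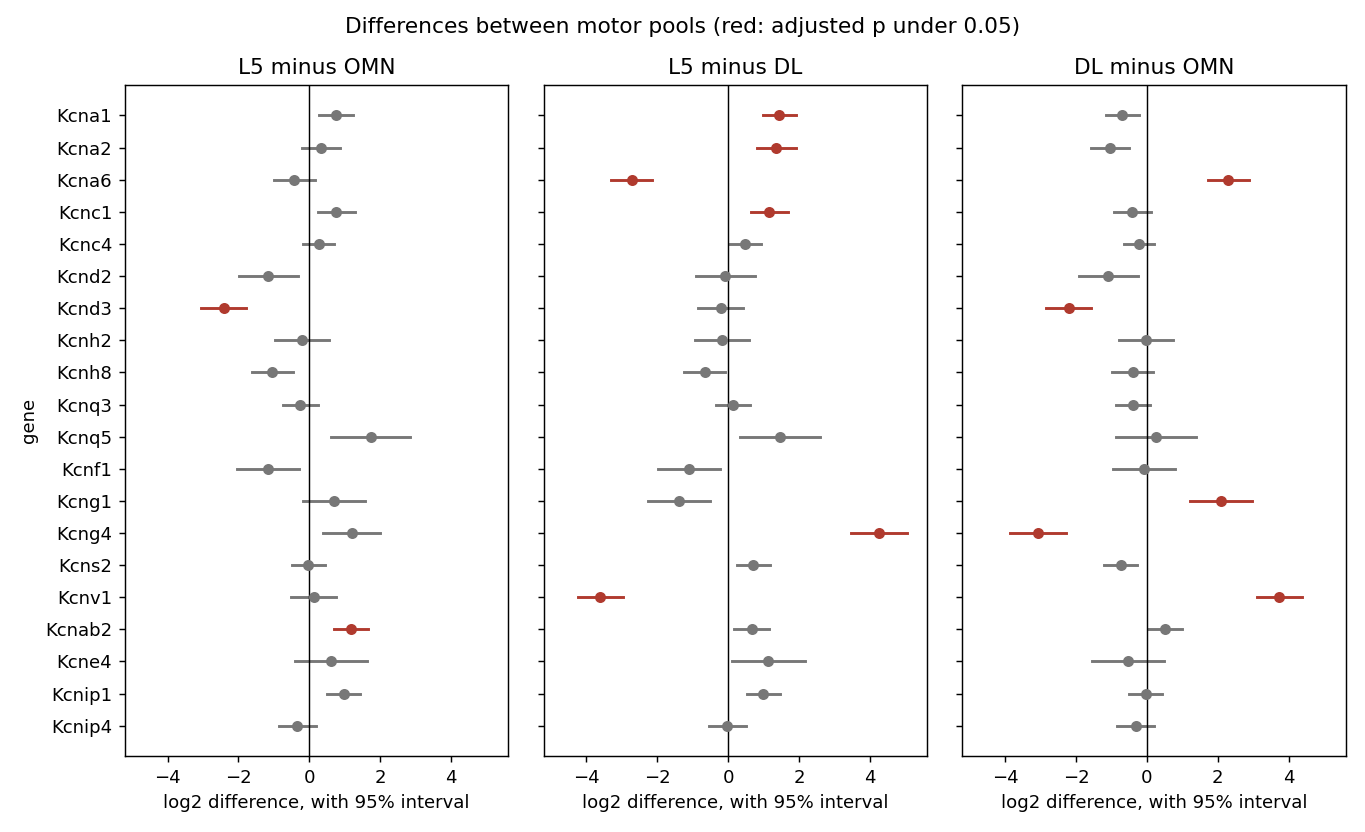
Log2 differences of the 20 members chosen by the naming rule given under the processing of the data, with 95% intervals, for L5 minus OMN, L5 minus DL and DL minus OMN. Red marks an adjusted p under 0.05. The 13 called differences are led by Kcng4 and Kcnv1, and every gene, Kcna6 included, is drawn from its chosen probe set only.

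Among the accessory genes, Kcnab2 was called. It encodes the main beta subunit of Kv1 channels in brain, which aids their surface expression, and stood at 1270, 1603 and 1293 in L5, 645, 559 and 608 in OMN, and 726, 1072.5 and 837.5 in DL. L5 lay above both pools on every array. It was higher than OMN by 1.17 ± 0.21 (limma adjusted p = 0.0385), and its difference from DL, 0.66 ± 0.21, was not called (adjusted p = 0.152). With all probe sets fitted, neither the chosen probe set of Kcnab2 nor its further one was called for L5 against OMN (limma adjusted p = 0.0569 and 0.0872). Kcnab1, whose product speeds the inactivation of Kv1 channels, had means of 1297 ± 268 (SD, n = 3) in L5, 635 ± 195 in OMN and 480 ± 159 in DL, with L5 minus DL at 1.44 ± 0.29 (adjusted p = 0.0550). With its probe sets averaged, Kcnab1 was called higher in L5 than in DL. Kcnab3 overlapped between pools by its chosen probe set, at 24.1 to 198. Its further probe set, 1421790_a_at, did not, ranging from 31.4 to 63.3 in L5, from 80.2 to 104 in OMN and from 11.6 to 28.0 in DL, and was called lower in DL than in OMN when all probe sets were fitted (-1.60, limma adjusted p = 0.0394).

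KChIP1, encoded by Kcnip1 and a partner of Kv4 subunits, was bright in every pool and brightest in L5. The arrays read 5210, 5152 and 4724 in L5, 2372, 2289 and 3126 in OMN, and 2542, 2252 and 2788 in DL. L5 did not overlap the others. The differences of 0.96 ± 0.20 from OMN and 0.99 ± 0.20 from DL lay just outside the threshold (limma adjusted p = 0.0632 and 0.0514), and OMN and DL differed by -0.03 (95% interval -0.49 to 0.43). With its probe sets averaged, Kcnip1 was called higher in L5 than in either other pool. Kcnip4 ranged from 745 to 888 in L5 and from 898 to 1110 in OMN, and in DL from 615 to 1008, with no call. Kcnip3 was at 579 to 891 in L5 against 317 to 446 in OMN and 282 to 519 in DL, and Kcnip2 at 70.2 to 119 in DL against 2.80 to 40.0 in L5, neither of them called. A further probe set of Kcnip3, 1418544_at, read 101 to 158 in L5 and 20.3 to 28.5 in DL and was called higher in L5 when all probe sets were fitted (1.90, limma adjusted p = 0.0313), and Kcnip3 was also called between L5 and DL with its probe sets averaged. Of the 5 Kcne genes, 1, Kcne1l, exceeded the noise level on all arrays (91.6 to 166). Kcne4 reached 67.2 on L5 array 2 and was not called, and Kcne1, Kcne2 and Kcne3 stayed at or under 29.6.

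**Figure D4:**
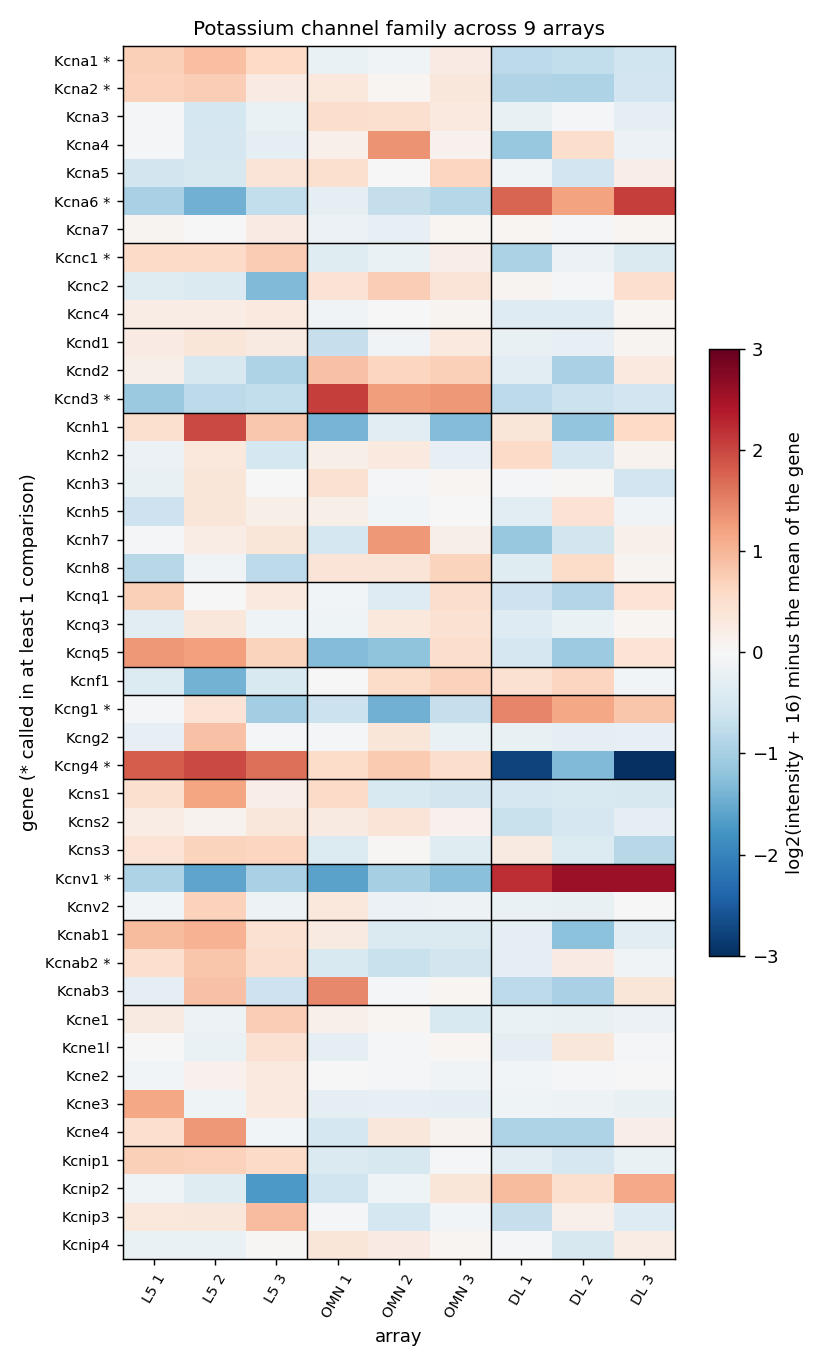
Log2(intensity + 16) of the 43 members on each of the 9 arrays, minus the mean of the gene, grouped by subfamily; asterisks mark the 9 called members. Kcng4 is low and Kcnv1 and Kcna6 high on the DL arrays, Kcnd3 is high on the OMN arrays. Every gene is drawn from its chosen probe set only, and a further one of Kcna6 was lowest in DL.

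Over the whole family, 41 of 43 members exceeded the noise level on at least 1 array and 23 on all 9. The pool mean was highest in L5 for 23 members (53.5%, beside 37.7% of all genes) and lowest in DL for 21 (48.8%, beside 37.3%). The median difference L5 minus DL was 0.43 over the members and 0.06 over all genes. DL minus OMN had medians of -0.28 and -0.04, and L5 minus OMN of 0.17 and 0.01. Rescaling the arrays to equal medians moved the median of all genes from 0.06 to -0.09 for L5 minus DL, and that of the members from 0.43 to 0.23, and for DL minus OMN it moved them from -0.04 to 0.16 and from -0.28 to -0.03. Arrays of both pools did not overlap for 21 members between L5 and DL (23.5% of all genes), for 20 between L5 and OMN (27.4%) and for 14 between DL and OMN (21.1%). These counts and medians describe the list and were not tested.

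Proteins known to bind, cluster or modulate these channels were read from a list of 28 genes, 23 of them measured. For L5 against OMN limma called 1, which was higher (2.17% of all genes were called), with 9 at an unadjusted p under 0.05 (15.9% of all genes). For L5 against DL it called 0 (2.55%), with 6 at an unadjusted p under 0.05 (18.9%). For DL against OMN it called 1, which was lower (3.02%), with 3 at an unadjusted p under 0.05 (16%). Amigo1, an adhesion protein that accompanies Kv2 channels, was at 587 ± 26.4 (SD, n = 3) in L5, 276 ± 24.9 in OMN and 428 ± 63.5 in DL, higher in L5 than in OMN by 1.05 ± 0.19 (limma adjusted p = 0.0402). Cntn2, the axonal glycoprotein that gathers Kv1 channels beside the nodes, was at 364 ± 71.8 in L5, 551 ± 66.0 in OMN and 123.3 ± 77.7 in DL. It was lower in DL than in OMN (-2.15 ± 0.31, adjusted p = 0.0151), and L5 minus DL was 1.56 ± 0.31 (adjusted p = 0.0522). Nedd4l, a ubiquitin ligase that acts on Kv7 channels, was at 192 ± 61.4, 349 ± 32.3 and 404 ± 97.3 in L5, OMN and DL, and Dpp6, a Kv4 accessory protein, at 718 ± 180, 1192 ± 211 and 1060 ± 167, neither of them called.

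Markers of other cells differed between the pools as well. The summed intensity of 4 inhibitory neuron markers was 5017 to 5875 on the DL arrays, 1628 to 2232 on those of L5 and 1852 to 2674 on those of OMN. Between L5 and OMN, whose sums overlapped, single inhibitory markers went opposite ways. Slc6a5 was called higher in L5 (mean 551, against 22.6 in OMN, where it was above noise on 1 array). Gad1 (101 against 396) and Gad2 (269 against 1312) were called lower in L5, and Slc32a1 (963 against 475) was not called. The summed intensity of 7 oligodendrocyte markers, all above noise on every array, was 16885 to 19273 in DL, 11820 to 12718.5 in L5 and 9446 to 10795 in OMN. For 7 astrocyte markers the sum was 16994 to 19286.5 in DL, below every L5 array (19507.5 to 20663) and above every OMN array (16017 to 16592). Single astrocyte markers differed in order. Gfap was called in every comparison, with means of 1550 ± 683 (SD, n = 3) in DL, 325 ± 82.4 in L5 and 18.0 ± 5.34 in OMN, where it was above noise on 2 arrays. By mean, Aldh1l1 was highest in OMN and lowest in DL, and Gja1 highest in OMN and lowest in L5. Aldoc and Slc1a3 were lowest in DL, and Aqp4 and Slc1a2 had the order of the sum. Sums of 6 microglial markers lay between 428 and 1103.5 and overlapped between all pools. The excitatory neuron marker Slc17a6 was called in every comparison and, like Kcnd3, had its highest mean in OMN, at 1124 ± 136, with 456 ± 59.8 in L5 and 202 ± 73.8 in DL, while Slc17a7 was under noise on all arrays. The Schwann cell marker Pmp22 was also called in every comparison, at 2060 ± 176 in L5, 135 ± 37.1 in OMN and 875 ± 183 in DL, with Pmp2 under noise on all arrays. The part of these cells in the called differences of the family was not tested.

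Several calls were lost on leaving out 1 array, though the differences kept their sign and much of their size. Those of Kcnv1, Kcng4 and Kcna6 in both their comparisons, and of Kcnd3 in DL against OMN, passed on leaving out each of the 9 arrays in turn. For Kcna6 this holds for its chosen probe set only, and a further one was called the opposite way. Kcnd3 in L5 against OMN was lost without any one L5 array (limma adjusted p = 0.0505 to 0.0537), with differences of -2.59 to -2.07 over all 9 omissions. Kcna1 was lost without any one L5 or DL array (0.0518 to 0.102; differences 1.33 to 1.6), and Kcna2 without any one of the 9, those of OMN included (0.0524 to 0.150; 1.2 to 1.6). Kcnc1 was lost without any array except DL array 2 (0.0792 to 0.172; 1.03 to 1.37), and Kcnab2 without any except DL array 2 (0.0545 to 0.175; 0.99 to 1.31). Kcng1 passed only without L5 array 2, L5 array 3 or OMN array 3 and was otherwise lost (0.0701 to 0.139; 1.66 to 2.47). Omitting DL arrays 1 and 3 left 1 DL array, whose spread is then taken from the other pools. With the replicate number as a block limma called 0 members between L5 and DL in that case, with 12 at an unadjusted p under 0.05, and 1, Kcnv1, between DL and OMN. Without the block it called 6 and 4.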

How the data were processed

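Per the labels' protocols, RNA of laser-captured motor neurons (at least 1.5 ng for each sample, from 12 µm sections) was amplified and turned into biotin-carrying probe for 3 Affymetrix 430 2.0 mouse arrays of each pool. The authors deposited 1 table of linear intensity values for 45101 probe sets on 9 arrays, and after removal of 2% of values at each end every array had a mean of 250. Which software made the values is not stated in the labels. Scaled arrays do not show the total RNA of a cell, and their number limits the precision.

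Control probe sets (64) were left out. Of the other 45037, 34945 named 1 gene, 932 several and 9160 none, and 34741 gene IDs were found in RefSeq's table. Intensities were converted to log2(intensity + 16), which shrinks the differences of dim genes. A limma 3.58.1 model (R 4.3.3) of all 18193 genes had a term for pool and a block for replicate number, because the protocol has each animal giving all pools, and p-values were adjusted by Benjamini-Hochberg in each comparison. The noise level came from 27 control probe sets and was chosen with the values known. Where arrays of a pool lay under it, values were raised to it and the ratio of geometric means is given as a bound. Other fold values are ratios of mean intensities. Scripts were tested on simulated data.

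The members, lists and naming rule were chosen with earlier results of these data known. The rule named called members, the smallest p of each subfamily without a call and a panel of 15 motor neuron channel genes, 11 of them measured. Other members are given to complete each subfamily. Alternatives covered the pseudocount, filter, scaling, probe set, variance model, block and left-out arrays.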

Additional observations from a re-analysis of the deposited data

How the results depend on the processing

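The 13 called differences and 22 further non-overlapping ones of the named members were followed through 20 settings planned beforehand and 5 chosen after seeing the data (the probe set with the highest mean log2 value, values raised to the noise level, the Gapdh ratio as a covariate, and no DL arrays 1 and 3 with and without the block). No called difference reversed. Of the others, Kcnc4 for L5 against OMN reversed to -0.21 with probe sets without _x_at or _s_at endings, which read another probe set. Of the 13 calls, 2, both of Kcnv1, held in all planned settings, and the call of Kcna2 was lost, among other settings, when probe sets were averaged or arrays were centred on their medians, as was that of Kcnc1. The causes were not tested.

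Members called between L5 and OMN numbered 2, and 1 with a pseudocount of 1, 4 with a pseudocount of 64, 4 with the mean of all probe sets, 8 with a trend and robust variances, 1 with values raised to the noise level, 4 with the Gapdh ratio, 5 without DL arrays 1 and 3 and the block, and 0 to 4 with 1 array left out (0 without L5 array 1 or 2). Between L5 and DL they numbered 6, and 2 with a pseudocount of 1, 3 with only both pools fitted, 3 with the Gapdh ratio, 0 without DL arrays 1 and 3 with the block, 9 with a pseudocount of 64, 9 with a trend and robust variances, 8 with the mean of all probe sets (7 higher and 1 lower in L5, from 4 and 2), and 3 to 4 with 1 array left out. Between DL and OMN they numbered 5, and 3 with a pseudocount of 1, 1 with only both pools fitted, 3 with the Gapdh ratio, 1 without DL arrays 1 and 3 with the block, 7 with a pseudocount of 64, 7 with a trend and robust variances, and 4 to 5 with 1 array left out. Averaging probe sets kept 5 there but turned 3 higher and 2 lower into 1 higher, Kcnv1, and 4 lower, Kcnd2, Kcnd3, Kcng4 and Kcns2.

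Genes called between L5 and OMN numbered 394, and 103 with a pseudocount of 1, 602 with 64, 946 with a trend and robust variances, 676 with array weights, 844 without DL arrays 1 and 3 and the block, and 83 to 375 with 1 array left out. Between L5 and DL they numbered 464, and 61, 814 and 1153 in the first 3 of these settings, 46 with only both pools fitted, 89 with the Gapdh ratio, 743 without DL arrays 1 and 3 and the block, 0 without them with the block (3007 at an unadjusted p under 0.05), and 55 to 259 with 1 array left out. Between DL and OMN they numbered 550, and 200 with a pseudocount of 1, 880 with a trend and robust variances, 120 with only both pools fitted, 344 with values raised to the noise level, 279 with the Gapdh ratio, 128 without DL arrays 1 and 3 with the block, and 186 to 370 with 1 array left out. Centring on the medians turned the share of higher calls from 50% to 24.2% for L5 against DL and from 45.3% to 71.5% for DL against OMN.

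Deviations from the pool means of equally numbered arrays correlated at -0.07 to 0.06 over 7123 genes, so the numbers did not visibly pair the arrays. Without the replicate block limma called 3 members between L5 and OMN, 8 between L5 and DL and 6 between DL and OMN, and 579, 806 and 716 genes. The members gained were Kcnip1 for L5 against OMN, Kcnab1 and Kcnip1 for L5 against DL, and Kcna2 for DL against OMN, and no member lost its call.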

Other observations

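Kcnq1ot1, the antisense RNA that the symbol rule also matched, was at 73.5, 12.5 and 9.0 in L5, 50.9, 62.3 and 53.0 in OMN and 48.6, 53.2 and 21.4 in DL by its brightest of 6 probe sets. It was not called in any comparison (limma adjusted p = 0.364, 0.593 and 0.737 for L5 against OMN, L5 against DL and DL against OMN). L5 array 1 lay above all other arrays and the other 2 L5 arrays under the noise level.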
